A study of Mus musculus with 107 samples.

Results

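The enzymes and carriers of glycolysis, glycogen turnover and the tricarboxylic acid (TCA) cycle were followed across 23 groups of mouse cells by sequencing the RNA that was bound to HA-tagged ribosomes. The set holds 45 genes out of 27179 counted, each found by its symbol and Entrez identifier, and it was drawn up by function, with no measured value in the rule. It covers 5 glucose or lactate carriers, 9 genes from hexokinase to aldolase, 8 from the triose phosphates to lactate, 6 at the entry of pyruvate into mitochondria, 9 of the TCA cycle, 5 of glycogen and 3 of the pentose phosphate pathway.

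All cells were of strain C57BL/6 and genotype RiboTag +, in which excision by Cre turns on an HA-tagged ribosomal protein for good, so the counts hold RNA from cells that carry the excised allele and whatever other RNA the immunoprecipitate retained. ESC (n = 4) came from crosses of RiboTag with Sox2-Cre mice and express the tag constitutively, and a single female ESC line gave rise to all neural progenitor cells (NPC). NPC were grown with EGF and FGF at 100 ng/ml each. The first derivation was sampled early (passage 5, NPC P5), at passage 15 (NPC P15) and late (passage 30, NPC P30), with 4 libraries at each, and 2 further derivations were sampled at passage 15, with 6 libraries of NPC P15 D2 and 4 of NPC P15 D3. Differentiation lasted 4 days with EGF and FGF lowered to 1 ng/ml. It was run without an addition (SPONT), with ciliary neurotrophic factor (CNTF) at 100 ng/ml, with insulin-like growth factor 1 (IGF-1) at 100 ng/ml, with 1, 5, 10 or 20% fetal bovine serum (FBS), or with CNTF and 5% FBS together (n = 4 each). NPC passed through a glass pipette in media (NPC media), in a diblock copolypeptide hydrogel (NPC DCH) or in that hydrogel with 4 h of dwell time (NPC DCH 4 h) had 5 libraries each. NPC were grafted into young adult mice in the hydrogel, 2 days after a severe crush spinal cord injury (SCI), and recovered at 14 d (Graft SCI 14 d) or 5 d (Graft SCI 5 d). The sources count these days from the injury in some places and from grafting in others, so the age of the injury is uncertain by 2 days. Other grafts were placed in uninjured cord (Graft uninjured 14 d) or in a double crush injury (Graft dSCI 14 d), with 5 libraries in each graft group. Host astrocytes came from 73.12 Gfap-Cre RiboTag mice without grafts, either healthy (n = 9) or 14 days after crush injury (n = 5).

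Glycolysis splits glucose into pyruvate, which is reduced to lactate by lactate dehydrogenase or carried into mitochondria and oxidised through the TCA cycle. Several steps have alternative genes with different tissue ranges. Hk2 is the inducible hexokinase of growing cells and muscle while Hk1 is the common brain form, Aldoc is the aldolase of astrocytes while Aldoa is widespread, and Ldhb favours oxidation of lactate while Ldha favours its production. In the central nervous system glycogen is held mainly by astrocytes.

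The immediate upstream sequences of Hk2, Ldha, Ldhb and Aldoc from these pairs are shown, with that of a lactate exporter, because the Hk2/Hk1, Aldoc/Aldoa and Ldhb/Ldha ratios and the level of Slc16a3 recur in the comparisons. Each is the 250 bases before 1 RefSeq transcript start on GRCm38.p6, the most upstream of those at hand, written 5′ to 3′ on the strand of the gene, and capitals mark ACGTG or GCGTG on either strand, the core letters that hypoxia-inducible factors and E-box proteins can bind. The windows were chr6:82774455-82774704 (minus strand) for Hk2, chr7:46845554-46845803 (plus) for Ldha, chr6:142507958-142508207 (minus) for Ldhb, chr11:78322823-78323072 (plus) for Aldoc and chr11:120948817-120949066 (plus) for Slc16a3. For Ldha and Slc16a3 the annotated gene begins further upstream, so their windows lie inside the gene span.
Hk2: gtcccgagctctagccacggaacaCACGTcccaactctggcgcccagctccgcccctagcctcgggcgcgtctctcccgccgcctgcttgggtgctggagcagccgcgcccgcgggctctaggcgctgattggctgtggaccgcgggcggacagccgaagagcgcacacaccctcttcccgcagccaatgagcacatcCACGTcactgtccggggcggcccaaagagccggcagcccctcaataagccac
Ldha: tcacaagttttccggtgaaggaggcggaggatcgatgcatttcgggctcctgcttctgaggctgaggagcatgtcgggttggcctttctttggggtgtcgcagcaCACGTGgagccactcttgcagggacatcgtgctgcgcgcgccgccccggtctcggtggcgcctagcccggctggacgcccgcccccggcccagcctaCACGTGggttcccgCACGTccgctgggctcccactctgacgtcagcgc
Ldhb: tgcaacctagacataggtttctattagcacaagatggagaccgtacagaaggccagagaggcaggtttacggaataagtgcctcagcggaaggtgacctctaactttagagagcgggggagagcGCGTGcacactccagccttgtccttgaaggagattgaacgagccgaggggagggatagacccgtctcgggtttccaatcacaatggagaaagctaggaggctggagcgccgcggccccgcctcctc
Aldoc: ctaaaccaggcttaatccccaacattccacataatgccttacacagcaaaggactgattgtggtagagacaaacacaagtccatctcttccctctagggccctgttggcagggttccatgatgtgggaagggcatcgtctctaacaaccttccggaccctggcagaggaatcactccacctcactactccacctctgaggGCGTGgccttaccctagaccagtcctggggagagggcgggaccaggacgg
Slc16a3: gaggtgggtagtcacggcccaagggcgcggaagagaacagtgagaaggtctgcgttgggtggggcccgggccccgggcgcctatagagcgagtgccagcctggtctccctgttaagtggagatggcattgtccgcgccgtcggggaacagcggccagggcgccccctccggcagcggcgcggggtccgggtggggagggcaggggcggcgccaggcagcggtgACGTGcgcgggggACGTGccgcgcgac
Ldha held 5 ACGTG matches, counting a palindromic CACGTG on both strands, Hk2 and Slc16a3 held 2 each, and Ldhb and Aldoc held 1 GCGTG each. The windows of Hk1 and Aldoa, which are not printed, held neither motif, and that of Aldoa lies inside the gene span. Only 1 start was searched for each gene, so other starts of Hk1 and Aldoa may differ. A window was at hand for 42 of the 45 genes, and 33 of them (78.6%) held at least 1 match, against 10442 of 27025 genes (38.6%) in all. The comparison was not matched for base composition, and a match describes letters only.

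The gene counts summed to between 30473157 and 147764968 per paired library and to between 12286240 and 18085106 in the 11 single-read libraries, which were all of NPC P15 D2 and Graft SCI 5 d. Derivation D2 and the 5 d time therefore cannot be told apart from read type. Levels are CPM, counts scaled to the library total, and fold changes are log2FC from edgeR after TMM scaling, given ± SE, so that they can differ from the ratio of the CPM. A gene is called changed at an adjusted p below 0.01 over all genes tested, and percentages of all tested genes called in the same comparison are given as background. Nothing in the labels says that libraries of a culture group came from separate cultures, so p-values measure the spread between these libraries. In such bulk libraries, fewer cells of a type and less RNA per cell cannot be told apart. Gapdh, Eno1, Pgk1, Tpi1, Pgam1, Ldha and Aldoa have near-identical processed copies in the genome, and their levels are uncertain to that extent.

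Per kilobase of exon, which allows genes to be compared, the leading member changed between groups. Aldoa led in ESC at 829.5 ± 32.9 CPM per kilobase (SD, n = 4), and Ldha led in NPC P15 at 393.9 ± 15.3. Aldoc led in SPONT at 1254.3 ± 76.3, in healthy host astrocytes at 3078.7 ± 222.3 (SD, n = 9) and in Graft SCI 14 d at 402.3 ± 99.2 (SD, n = 5). The lowest gene in ESC was Ppp1r3c, a targeting subunit that brings protein phosphatase 1 to glycogen, at 0.0803 CPM per kilobase.

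**Figure D1:**
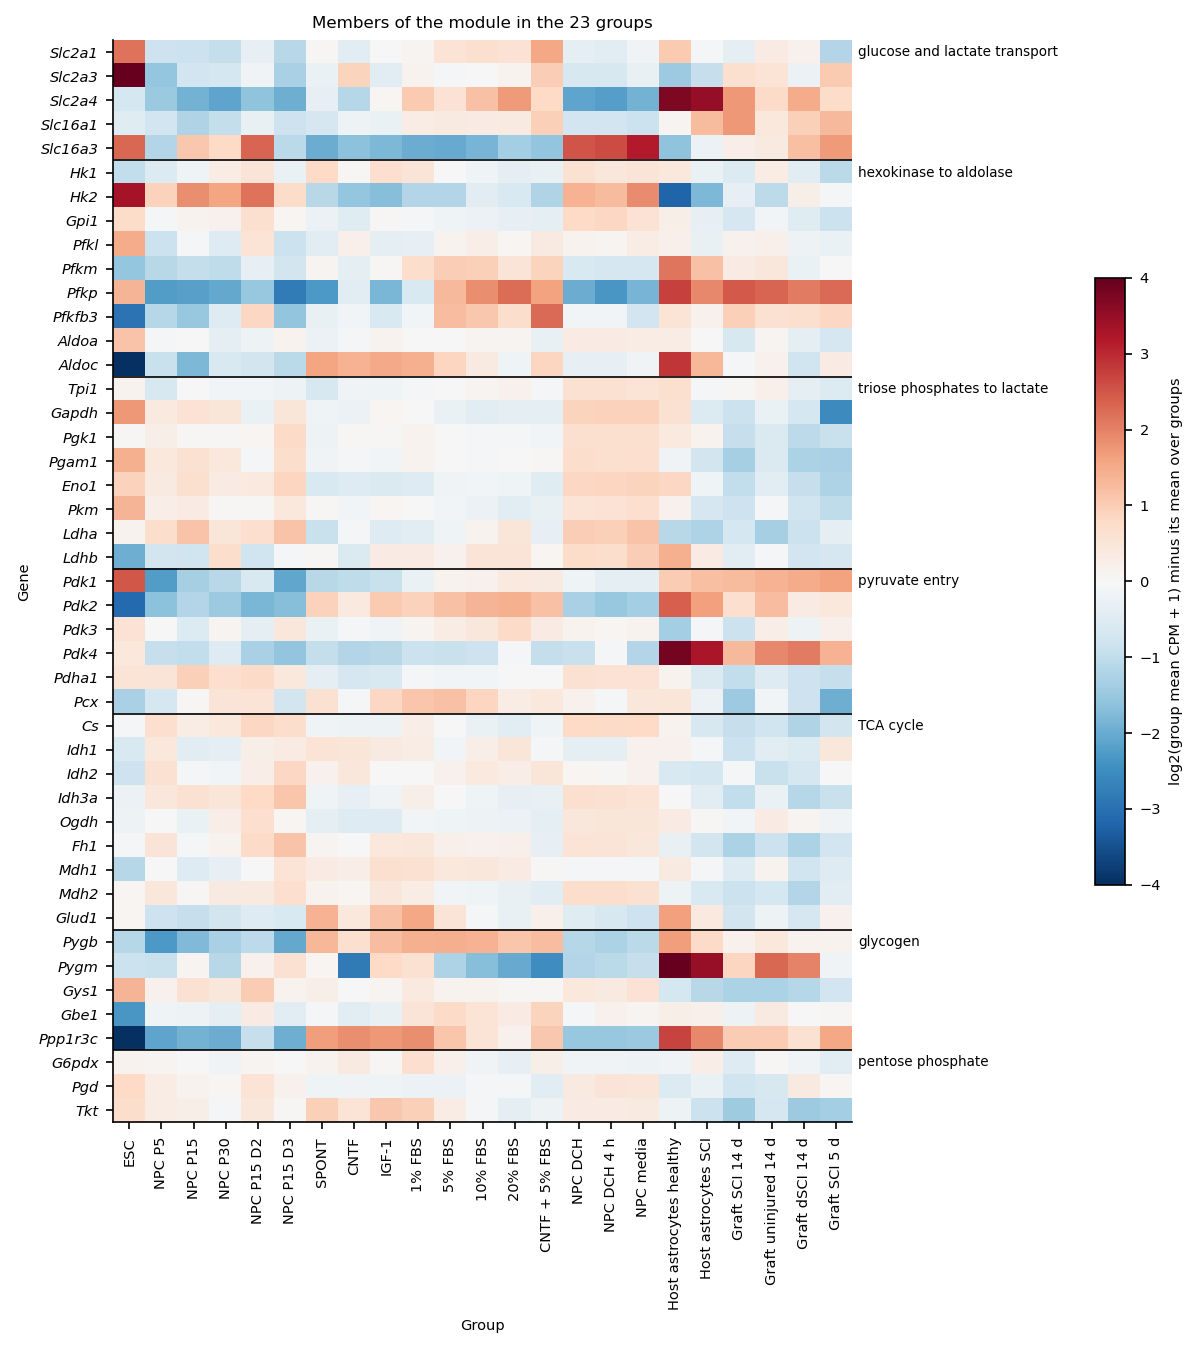
Mean level of each of the 45 genes in each of the 23 groups, as log2(mean CPM + 1) minus the mean of that gene over the groups, with genes ordered by pathway step. ESC and healthy host astrocytes hold the highest mean of 12 genes each.

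Among the 45 genes, 12 had their highest group mean in ESC and 12 in healthy host astrocytes, while 8 were lowest in ESC. The ratio of the highest to the lowest group mean ran from 2.27 for G6pdx, the entry enzyme of the pentose phosphate pathway, to 1675 for Ppp1r3c. Aldoc spanned 398-fold and Pygm, the muscle-type glycogen phosphorylase, 476-fold.

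The step from ESC to NPC P15 asks how the RNA of these genes changed on neural induction. According to the paper, ESC were kept with serum and leukemia inhibitory factor, and NPC in serum-free medium with EGF and FGF. Neural induction and medium therefore cannot be told apart. Most carriers and several early glycolytic enzymes fell, Aldoc rose, and the glycogen genes split, with 3 of 5 higher and 2 lower. In all, 38 of 45 genes were called (16 higher, 22 lower), where 67.2% of all tested genes were called (32.2% higher and 34.9% lower). The median log2FC was −0.27 for the set and −0.10 for all genes.

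Among the carriers, 4 of 5 fell and none rose. Slc2a3 (GLUT3), a high-affinity glucose carrier, had 1003, 1019, 985.8 and 1036 CPM in ESC and 16.54, 16.50, 15.42 and 20.84 in NPC P15 (log2FC −5.96 ± 0.09, adjusted p = 8.325e-13). Slc2a1 (GLUT1), the basal glucose carrier, had 388.7, 346.6, 368.5 and 358.0 CPM in ESC and 44.80, 43.76, 42.18 and 43.77 in NPC P15 (−3.15 ± 0.05, adjusted p = 1.704e-12). In both genes every ESC library lay far above every NPC P15 library. Slc16a3 (MCT4), which exports lactate, fell by 1.37 on the log2 scale.

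From hexokinase to aldolase 4 genes rose and 5 fell. Hk2 had 287.1, 363.4, 320.9 and 320.1 CPM in ESC and 125.0, 103.8, 116.9 and 117.7 in NPC P15 (−1.57 ± 0.08, adjusted p = 7.946e-09), while Hk1 had 132.6, 133.7, 136.2 and 122.9 CPM against 245.3, 222.7, 226.3 and 231.4 (0.73 ± 0.05, adjusted p = 1.684e-07). The 2 hexokinases thus moved in opposite directions with no overlap of libraries in either. Pfkp, the platelet-type phosphofructokinase, fell from 110.2, 106.3, 100.2 and 102.6 CPM to 8.057, 6.841, 5.625 and 11.76 (−3.80 ± 0.19, adjusted p = 9.046e-09), and Pfkl, the liver type, fell by 1.66. Pfkfb3, which makes the activator of phosphofructokinase, rose by 1.43. Aldoc rose from 28.94, 24.44, 23.04 and 24.45 CPM to 390.6, 410.8, 400.7 and 371.2 (3.87 ± 0.08, adjusted p = 6.93e-12), and Aldoa fell (−1.26).

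Downstream, Ldha (0.92) and Ldhb (1.08) both rose. Of the pyruvate dehydrogenase kinases, which switch off pyruvate oxidation, Pdk1 had 144.9, 141.2, 120.5 and 125.0 CPM in ESC and 8.457, 7.977, 10.71 and 7.060 in NPC P15 (−4.04 ± 0.13, adjusted p = 2.644e-10). Pdk3 also fell (−1.28), whereas Pdk2 rose (1.96). Pcx, pyruvate carboxylase, rose by 1.29. In the TCA cycle 4 of 9 genes rose and 1 fell, but the direction of several depended on the NPC group. Mdh2 was higher than in ESC with every other NPC group (0.16 to 0.52). Fh1 was higher with NPC P5 (0.44), D2 (0.68) and D3 (1.13), and Ogdh with NPC P30 (0.37) and D2 (0.75). The TCA genes summed to 2122 CPM in ESC, 2303 in NPC P15 and 2644 to 3567 in the other NPC groups. Of the glycogen genes, Ppp1r3c had at most 0.4245 CPM in ESC and 14.93, 17.23, 11.31 and 12.75 in NPC P15 (5.88 ± 0.46, adjusted p = 3.889e-07), and Gbe1, the branching enzyme, rose by 2.61. The summed level of the 5 glycogen genes was 352 CPM in ESC and 254.5 in NPC P15, and Gys1, glycogen synthase, was among those called lower (−0.85).

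**Figure D2:**
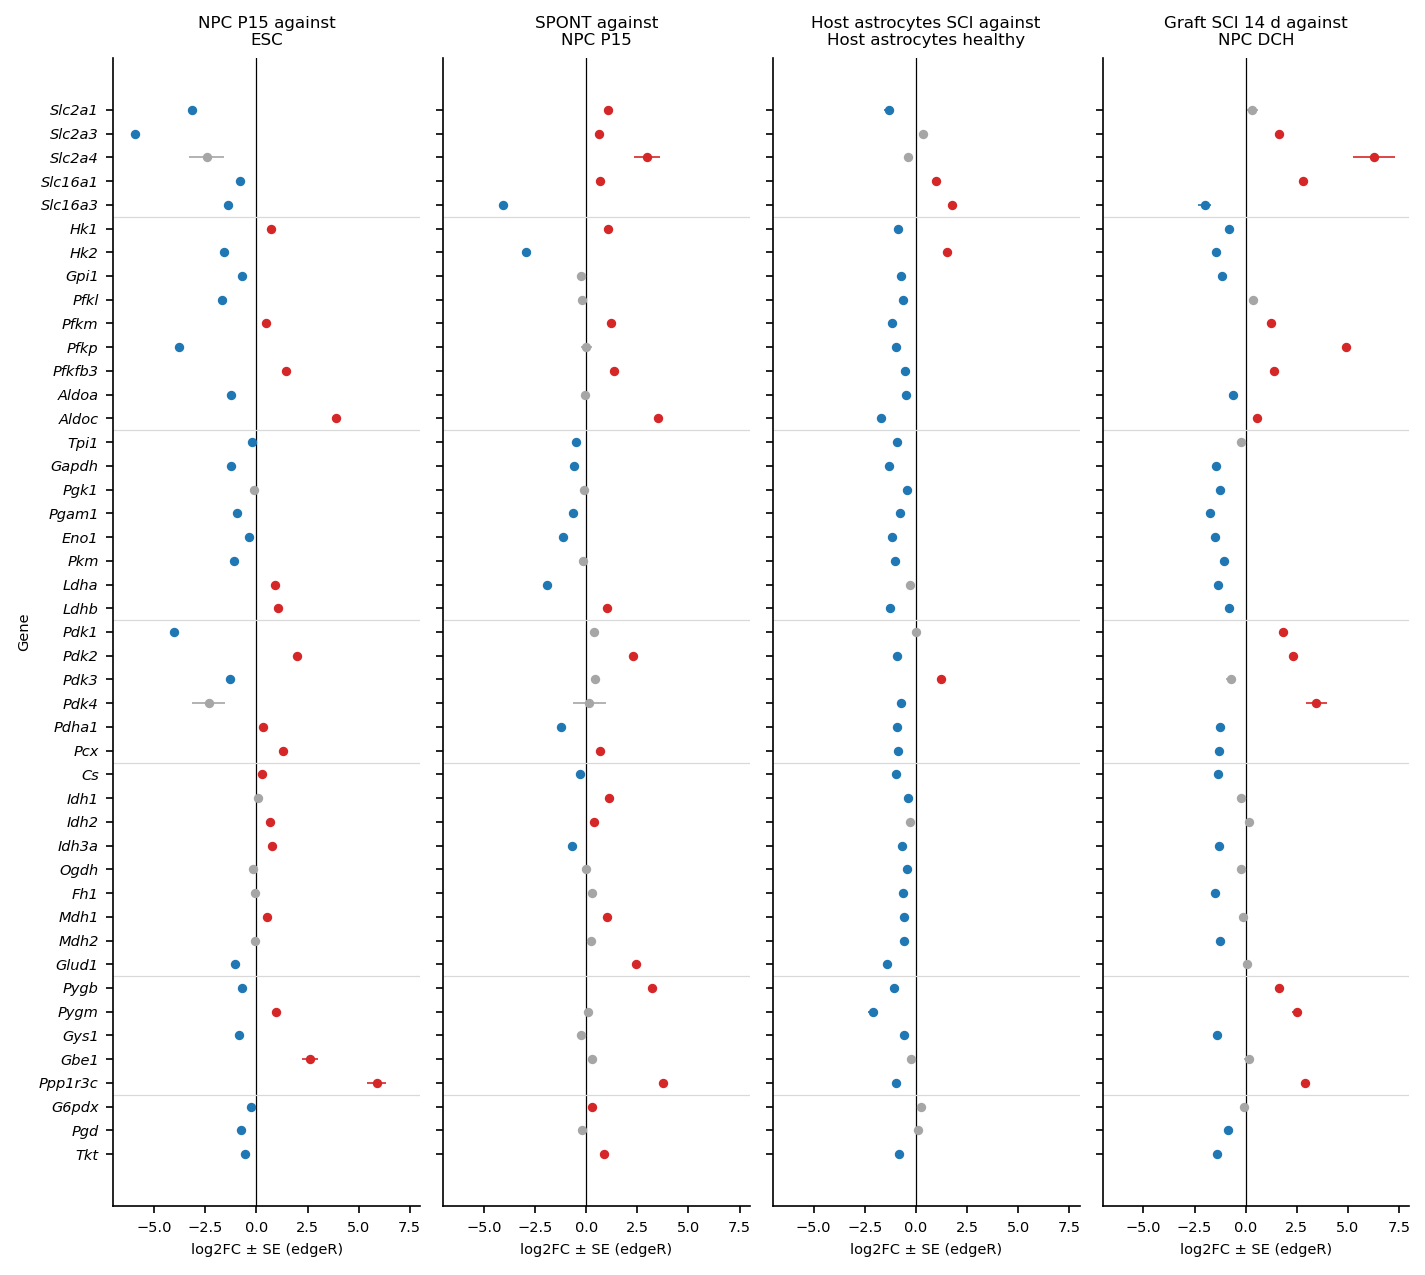
log2FC of each of the 45 genes in the main comparisons, with bars of 1 SE, in red where called higher, blue where called lower and grey where not called. Slc2a3, Pdk1 and Pfkp fell most from ESC to NPC P15, and Ppp1r3c and Aldoc rose most both there and from NPC P15 to SPONT.

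The NPC groups themselves differed in level. The ratio of the highest to the lowest mean among the 5 NPC groups had a median of 1.83 over the genes and passed 2 for 19 of them. It was largest for Slc16a3 (16.75-fold), Pdk4 (8.26-fold), an inhibitory kinase induced by fasting, and Pfkfb3 (5.5-fold). These values are a description, and D2 differs in read type. They bear on every comparison that takes a single NPC group as its reference.

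From NPC P15 to SPONT the question was what differentiation without an added factor does. Pygb and Ppp1r3c of glycogen turnover, Aldoc and Glud1, which brings glutamate into the TCA cycle, rose, and Hk2, Ldha and the lactate exporter fell. In all, 29 of 45 genes were called (19 higher, 10 lower), where 57.2% of all tested genes were called (29.8% higher and 27.4% lower). With library sizes alone in place of TMM the split was 18 higher and 16 lower. The split also depended on the NPC reference. It was 18 higher and 13 lower against NPC P5, and 17 and 12 against NPC P30. Against NPC P15 D2 it was 13 and 19, and against NPC P15 D3 17 and 19, so more genes were lower than higher there. Against D3, 8 genes of the set turned their sign. The sample titles give no derivation for SPONT. Genes with counts numbered 14799 to 15242 in NPC P15 libraries, 16833 to 17297 in D3 and 17263 to 17365 in SPONT. Differentiation therefore cannot be told apart from derivation or batch in this comparison. Summed CPM of 8 astrocyte markers was 153.4 to 162.3 in NPC P15 and 8236 to 11900 in SPONT, and that of 5 proliferation markers was 867.5 to 892.8 and 122.5 to 170.8. Their part in the result was not tested.

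Hk2 fell to 17.95, 11.03, 14.37 and 12.27 CPM in SPONT (−2.93 ± 0.15, adjusted p = 2.103e-08), below every NPC P15 library given above, and Hk1 rose to 433.3, 553.4, 417.8 and 378.8 CPM (1.08 ± 0.12, adjusted p = 1.212e-05). Aldoc rose to 4156, 3731, 4184 and 4300 CPM (3.51 ± 0.06, adjusted p = 2.451e-11), whereas Aldoa had a log2FC of −0.08 and was not called. Ldha had 1231, 1347, 1326 and 1311 CPM in NPC P15 and 316.8, 338.0, 301.9 and 310.8 in SPONT (−1.91 ± 0.07, adjusted p = 1.683e-09), while Ldhb went from 206.2, 218.2, 202.8 and 219.9 to 329.5, 447.9, 379.1 and 385.3 (1.00 ± 0.10, adjusted p = 5.035e-06). The direction for Ldhb depended on the reference, since SPONT was lower than NPC P30 (−0.48, adjusted p = 9.83e-04). The libraries of both groups were fully separated for each of these genes except Aldoa. Per kilobase of exon, Ldhb made up 25.5% of the summed Ldha and Ldhb in NPC P15 and 71.8% in SPONT.

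Pygb, the brain-type glycogen phosphorylase, had 82.44, 87.92, 89.73 and 98.34 CPM in NPC P15 and 877.6, 670.0, 771.5 and 755.9 in SPONT (3.23 ± 0.09, adjusted p = 3.395e-10). Ppp1r3c reached 208.4, 136.1, 173.7 and 183.04 CPM (3.77 ± 0.16, adjusted p = 6.777e-09). Both were called higher and no other glycogen gene of the set was called. Glud1, glutamate dehydrogenase, had 191.8, 192.6, 180.3 and 192.3 CPM in NPC P15 and 1057, 721.6, 959.0 and 982.9 in SPONT (2.42 ± 0.10, adjusted p = 5.72e-09). Pdk2 had 38.34, 32.76, 41.20 and 33.25 CPM against 153.8, 175.3, 161.7 and 151.1 (2.27 ± 0.11, adjusted p = 1.457e-08). Slc16a3 fell from 12.35, 12.89, 13.73 and 14.28 CPM to below 1 in every SPONT library, at 0.5861, 0.7720, 0.8697 and 0.6914 (−4.06 ± 0.20, adjusted p = 1.867e-08). Slc2a4 (GLUT4), the insulin-responsive glucose carrier, rose by 2.96 from a low level, Pfkfb3 by 1.37 (but its log2FC was −1.09 against NPC P15 D2) and Pfkm, the muscle-type phosphofructokinase, by 1.22, while Pdha1 of the pyruvate dehydrogenase complex fell by 1.21 and Eno1 (enolase) by 1.14.

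CNTF added to the spontaneous condition changed 19 of 45 genes (8 higher, 11 lower), where 19.9% of all tested genes were called (10.8% higher and 9.15% lower). Pygm had 22.61, 24.41, 19.24 and 16.70 CPM in SPONT and 2.405, 1.849, 1.502 and 1.698 with CNTF (−3.45 ± 0.18, adjusted p = 4.034e-07), the largest difference in the set. Pfkp had 9.001, 8.717, 5.940 and 5.987 CPM against 28.87, 29.42, 29.89 and 27.17 (1.98 ± 0.16, adjusted p = 6.072e-06), and Slc2a3 had 26.05, 24.50, 23.26 and 24.65 against 52.94, 57.03, 55.69 and 57.35 (1.20 ± 0.07, adjusted p = 6.846e-07). No library of one group reached the range of the other in these genes. Ldha rose to 567.5, 553.5, 576.4 and 557.8 CPM (0.85 ± 0.06, adjusted p = 5.178e-06) as Ldhb fell (−0.63), and Hk1 (−0.73) and Slc2a4 (−1.17) fell too. Hk2 (−0.43), Aldoc (−0.15) and Aldoa (0.17) were not called.

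IGF-1 against SPONT gave 4 called genes, all higher (Pgk1, Tpi1, Ldha and Pygm), where 6.55% of all tested genes were called (2.8% higher and 3.75% lower). Ldha differed by 0.43 on the log2 scale. The count rests on single libraries, since it was 17 without SPONT replicate 2 and 0 without SPONT replicate 3, SPONT replicate 4 or any IGF-1 library.

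Serum at 1% gave 12 called genes, all higher, where 8.78% of all tested genes were called (5.63% higher and 3.15% lower). Without SPONT replicate 3 the count was 6. Slc2a4 had 4.038, 4.407, 2.978 and 2.088 CPM in SPONT and 11.83, 9.108, 9.314 and 10.73 in 1% FBS (1.61 ± 0.22, adjusted p = 0.0006476). Pfkp reached 22.29, 34.11, 22.30 and 24.45 CPM (1.81 ± 0.19, adjusted p = 0.0001466), above all SPONT libraries.

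More serum changed the set much further. Between 1% and 20% FBS 33 of 45 genes were called (13 higher, 20 lower), where 60% of all tested genes were called (30.4% higher and 29.6% lower). Pfkp and 3 of 5 carriers were called higher. Called lower were 5 of 9 TCA genes, 4 of 5 glycogen genes and 2 of 3 pentose phosphate genes. The summed mean level of the 5 carriers changed little, from 359.7 CPM in 1% FBS to 410.3 in 20% FBS. The group means rose at every dose from 1% to 20% for 8 genes (Pfkp, Aldoa, Tpi1, Ldha, Pdk1, Pdk2, Pdk3 and Pgd) and fell at every dose for 14 (Hk1, Gpi1, Aldoc, Pkm, Cs, Idh3a, Ogdh, Mdh2, Glud1, Pygm, Gys1, Ppp1r3c, G6pdx and Tkt), which is an order of means without a test. Summed markers moved too: from 1% to 20% FBS those of astrocytes (8 genes) went from 17810–23330 to 3780–4415 CPM, of oligodendrocyte progenitors (4 genes) from 1970–2906 to 246–304.8 and of proliferation (5 genes) from 177.3–257.4 to 68.74–88.5, while those of fibroblasts (4 genes) were at most 57.08 in 1% FBS and reached 442.7 in 20% FBS. Their part in the result was not tested.

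Pfkp had means of 25.8, 99.1, 148.7 and 194.4 CPM at 1, 5, 10 and 20% FBS, with 204.4, 208.8, 206.1 and 158.3 CPM in the libraries at 20% (2.89 ± 0.14 against 1%, adjusted p = 2.938e-09). Aldoc fell in mean from 3659 to 2514, 1772 and 1233 CPM. Its libraries had 3405, 3445, 2952 and 4835 CPM at 1% and 1272, 1252, 1258 and 1149 at 20% (−1.60 ± 0.12, adjusted p = 1.172e-07). Both genes kept the end groups apart in every library. Pygm went from 24.50, 22.36, 33.20 and 40.17 CPM to 3.519, 4.334, 3.615 and 4.906 (−2.90 ± 0.19, adjusted p = 3.03e-08). G6pdx went from 140.0, 133.1, 123.7 and 127.5 CPM to 62.70, 65.07, 71.17 and 64.12 (−1.03 ± 0.06, adjusted p = 1.912e-08), and transketolase (Tkt, −1.33) fell with it. Glud1 (−1.87) and Ppp1r3c (−1.74) also fell, as did Hk1 (−0.94), while Pdk4 (1.34), Slc16a3 (1.13), Ldha (0.91) and Hk2 (0.56) rose. Pdk4 and Slc16a3 were low throughout, with medians of 0.99 and 0.76 CPM at 1% and 2.43 and 1.68 CPM at 20%. Aldoa (0.09) and Ldhb (0.13) were not called between the end doses.

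CNTF on top of 5% FBS gave 22 called genes (5 higher, 17 lower), where 23.3% of all tested genes were called (11.3% higher and 12% lower). With library sizes alone the split was 6 higher and 10 lower. All 4 of the called carriers were higher, and 7 of 9 TCA genes were lower. Slc2a3 rose by 1.04 and Pygm fell by 1.62. Slc2a1 and Pfkfb3, both chosen here after their values were seen, also moved. Slc2a1 had 109.3, 126.7, 124.0 and 116.1 CPM in 5% FBS and 229.1, 238.3, 235.2 and 241.5 with CNTF (0.92 ± 0.06, adjusted p = 7.629e-06), and Pfkfb3 had 234.1, 192.9, 225.2 and 189.2 against 398.7, 459.5, 449.2 and 420.4 (0.97 ± 0.08, adjusted p = 3.454e-05).

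The pipette-handled cells were compared in order to read the grafts against cells just before injection. NPC media against NPC P15 gave 32 called genes (30 higher, 2 lower), where 26.2% of all tested genes were called (13.2% higher and 13% lower). The direction depended on the NPC group taken as the reference: it was 27 higher and 2 lower against NPC P5, 28 and 0 against NPC P30, 14 and 12 against NPC P15 D2, and 20 and 7 against NPC P15 D3, alternatives chosen after seeing the data. Slc16a3 reached 55.16, 64, 63.46, 65.08 and 56.73 CPM (2.20 ± 0.10, adjusted p = 3.3e-12), Ldhb 752.8, 706.7, 727.0, 743.1 and 755.0 (1.80 ± 0.04, adjusted p = 3.945e-17) and Aldoc 1270, 1260, 1269, 1210 and 1194 (1.66 ± 0.04, adjusted p = 3.945e-17). All these libraries lay above those of NPC P15. Pdk1 rose by 1.01. Pygm fell by 1.11 against NPC P15, but its log2FC was 0.0043 against NPC P5 and 0.27 against NPC P30.

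The called differences between cells in hydrogel and cells in media were at most 0.69 in size on the log2 scale. NPC DCH against NPC media had 9 of 44 tested genes called, where 4.32% of all tested genes were called (1.91% higher and 2.41% lower). Glud1 (0.35), Gpi1 (0.22) and Pfkfb3 (0.67) were higher, and Slc16a3 (−0.69), Idh1 (−0.53), Hk2 (−0.49), Ldhb (−0.27), Aldoc (−0.15) and Ldha (−0.15) were lower, all named because the count was small. After 4 h of dwell time 0 of 44 genes were called against NPC DCH by edgeR and 0 by DESeq2, where 0.32% of all tested genes were called (0.0436% higher and 0.276% lower), and 3 had an unadjusted p below 0.05.

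The 3 pairs of alternative genes were followed as the log2 ratio of their counts in each library, with exact two-sided permutation tests of that ratio and adjusted values over 21 tests (a pseudocount of 1 count was added). With 4 libraries a group, the smallest p such a test allows is 0.02857. In ESC the log2 Hk2/Hk1 ratio was 1.29 ± 0.15 (SD, n = 4), in NPC P15 −1.001 ± 0.068 and in SPONT −5.01 ± 0.45. The ratio fell at both steps by exact permutation tests (adjusted p = 0.03529 each), with no overlap of libraries. NPC P15 had the highest mean ratio of the NPC groups, which was −2.02 to −1.35 in the others. Per kilobase, Hk2 made up 77.8% of the 2 hexokinases in ESC, 41.7% in NPC P15 and 4.37% in SPONT. CNTF gave −4.71 ± 0.09, a difference of 0.299 that did not pass the exact permutation test (adjusted p = 0.2286). The means for 1, 5, 10 and 20% FBS were −4.79, −4.26, −3.37 and −3.28.

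The log2 Aldoc/Aldoa ratio was −6.59 ± 0.14 in ESC, −1.45 ± 0.08 in NPC P15 and 2.15 ± 0.26 in SPONT. It rose at both steps (adjusted p = 0.03529 each, exact permutation tests). The share of Aldoc in the summed 2 aldolases per kilobase was 0.923%, 24.7% and 79.7% in turn, so Aldoc was the lesser form in NPC P15 and the main form in SPONT. NPC P15 had the lowest mean log2 ratio of the NPC groups, which was −0.86 to 0.12 in the others. CNTF gave 1.83 ± 0.04, which did not differ from SPONT by the exact permutation test (adjusted p = 0.15). Serum lowered the mean ratio from 1.75 at 1% to 1.17, 0.61 and 0.08 at 5, 10 and 20%. The log2 Ldhb/Ldha ratio was −2.78 ± 0.08 in ESC and −2.62 ± 0.06 in NPC P15, a difference of 0.155 without overlap (adjusted p = 0.03529, exact permutation test). It was −0.44 ± 0.07 in NPC P30, far from NPC P15 of the same derivation, which had the lowest mean of the NPC groups here too. The ratios were not tested with another NPC group as reference, so the size of the steps from and to NPC P15 depends on that choice. The log2 Ldhb/Ldha ratio was 0.28 ± 0.15 in SPONT and −1.20 ± 0.06 with CNTF, a difference of −1.47 (adjusted p = 0.03529, exact permutation test), and the libraries did not overlap.

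**Figure D3:**
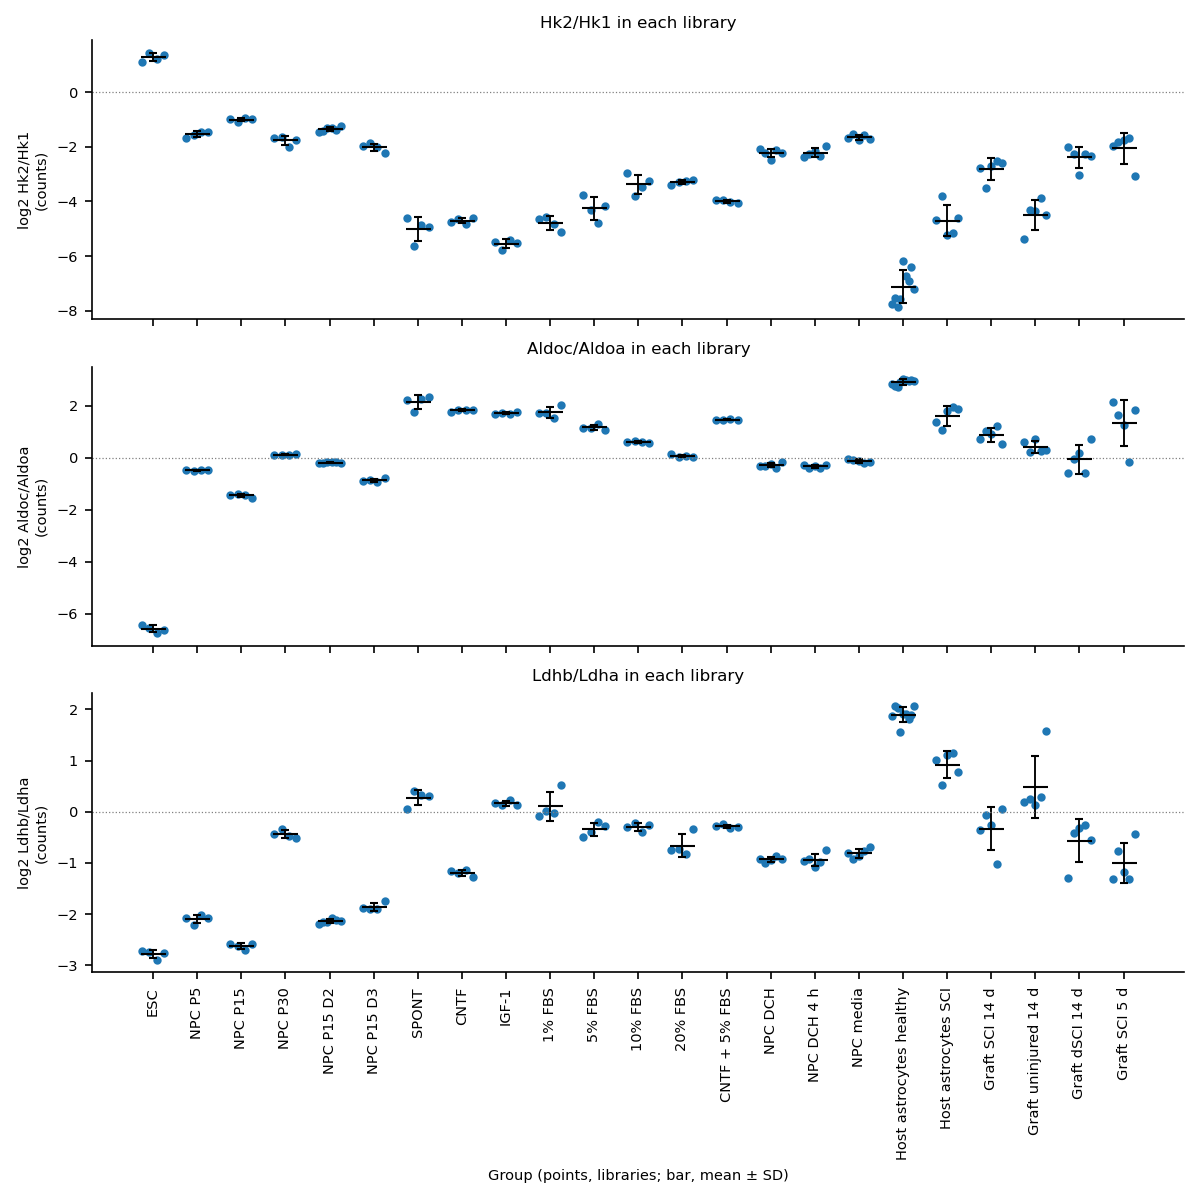
log2 ratio of counts for Hk2/Hk1, Aldoc/Aldoa and Ldhb/Ldha in each library (points) of the 23 groups, with the group mean as a bar. The Aldoc/Aldoa ratio is above 0 in every library of all differentiation cultures, host astrocytes, Graft SCI 14 d, Graft uninjured 14 d and NPC P30. The Hk2/Hk1 ratio is above 0 only in ESC.

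Host astrocytes were compared to ask how resident cells changed after injury. Most of the set was lower after SCI: 37 of 45 genes were called, 4 higher and 33 lower, where 41.1% of all tested genes were called (22.2% higher and 18.8% lower). The median log2FC was −0.66 for the set and 0.018 for all genes, which library sizes alone moved to 0.196. The lower genes came from all steps: 8 of 9 from hexokinase to aldolase, 7 of 8 from the triose phosphates to lactate, 8 of 9 of the TCA cycle and 4 of 5 of glycogen. Summed astrocyte markers (8 genes) were 36440 to 43600 CPM in healthy and 24090 to 40970 after SCI. Those of oligodendrocytes (6 genes) were 5901 to 12490 and 23720 to 39650, of myeloid cells (8 genes) 13.6 to 25.17 and 158.8 to 1005, of fibroblasts (4 genes) 119.4 to 197.3 and 437.8 to 962.8, and of Schwann cells (3 genes) 1083 to 2368 and 2749 to 6119. The part of these other cells in the result was not tested.

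Pygm had 719.6 to 1095 CPM (median 872.6) in healthy host astrocytes and 122.5, 120.5, 249.8, 328.3 and 327.5 after SCI (−2.11 ± 0.24, adjusted p = 1.003e-06). Aldoc had 8923 to 10907 CPM (median 10178) and then 2482, 2029, 3622, 4522 and 4495 (−1.72 ± 0.17, adjusted p = 2.432e-07). Every SCI library lay below every healthy one in both. Glud1 (−1.43), Slc2a1 (−1.34), Gapdh (−1.33), Ldhb (−1.27), Pfkm (−1.17), Eno1 (−1.16), Hk1 (−0.85) and Aldoa (−0.50) also fell, and Ldha (−0.30) was not called.

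The 4 genes that rose started low, other than Slc16a1. Hk2 had 1.715 to 3.649 CPM (median 2.32) in healthy and 7.115, 12.04, 6.5, 8.145 and 8.013 after SCI (1.53 ± 0.22, adjusted p = 1.532e-05). Slc16a3 had 0.8607 to 1.708 CPM (median 1.327) and then 3.571, 7.141, 3.920, 3.655 and 5.867 (1.78 ± 0.23, adjusted p = 4.428e-06). Pdk3 had 4.878 to 9.781 CPM (median 6.514) and then 21.23, 21.73, 20.05, 19.60 and 12.91 (1.21 ± 0.16, adjusted p = 7.202e-06). The groups did not overlap in these genes. Slc16a1 (MCT1), which carries lactate in either direction and was named after its value was seen, had 162.7 to 259.2 CPM (median 201.7) and then 464.4, 486.5, 397.2, 464.4 and 426.7 (0.96 ± 0.10, adjusted p = 6.085e-07).

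The log2 Hk2/Hk1 ratio of host astrocytes went from −7.13 ± 0.61 (SD, n = 9) to −4.70 ± 0.57 (SD, n = 5), a difference of 2.43 (adjusted p = 0.006993, exact permutation test, where the smallest unadjusted p is 0.000999). The Aldoc/Aldoa ratio went from 2.91 ± 0.11 to 1.62 ± 0.38 and the Ldhb/Ldha ratio from 1.90 ± 0.16 to 0.91 ± 0.26 (adjusted p = 0.006993 for each, exact permutation tests). None of the 3 ratios overlapped between healthy and SCI libraries. Aldoc and Ldhb remained the more abundant forms after SCI, at 73.1% of aldolase and 79.8% of lactate dehydrogenase per kilobase, against 87% and 88.7% in healthy astrocytes.

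Among the graft libraries, replicate 5 of Graft SCI 14 d and replicate 5 of Graft dSCI 14 d stood apart. The latter was the lowest of its 5 libraries for 36 of the 45 genes and held the fewest counts of them, 44385710. The former was the lowest of its 5 libraries for 32 of the 45 genes, Pfkp, Slc16a1, Idh2, Slc2a3, Tpi1 and Idh1 among them, and it held the fewest counts of them, 40506790. Without replicate 5 of Graft SCI 14 d the number of called genes was 36 against NPC DCH, 22 against host astrocytes after SCI and 19 for the interaction with the host. Replicate 5 of Graft uninjured 14 d also differed, with a log2 Ldhb/Ldha ratio of 1.571 against 0.1363 to 0.2847 in the rest of its group. Without that library the interaction was called for 22 genes, the most when each library was left out in turn, and the fewest were 13. Graft SCI 14 d and Graft uninjured 14 d were set against the same 5 NPC DCH libraries, so their results share those controls. Graft libraries held markers of other cells. Summed fibroblast markers were 620.7 to 2507 CPM in Graft SCI 14 d, 921.6 to 2911 in Graft uninjured 14 d, 4082 to 18990 in Graft dSCI 14 d and 3950 to 12040 in Graft SCI 5 d, and myeloid markers 304 to 1042, 156.1 to 991.1, 644.6 to 4653 and 315.7 to 6768. Summed astrocyte markers were 10350 to 21910 in Graft SCI 14 d and 229.3 to 255.9 in NPC DCH. Those of proliferation (5 genes) were 51 to 111.2 and 986.3 to 1112, and those of oligodendrocytes (6 genes) 4523 to 11250 and 101.6 to 116.4. The part of these markers in the graft results was not tested.

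After 14 d in injured cord 34 of 45 genes were called against NPC DCH (13 higher, 21 lower), where 51.6% of all tested genes were called (28.4% higher and 23.3% lower). The median log2FC was −0.24 for the set and 0.15 for all genes, a value that library sizes alone moved to −0.182. In uninjured cord 31 genes were called (13 higher, 18 lower), where 53.7% of all tested genes were called (28.4% higher and 25.3% lower). Lactate-end glycolysis fell in both, with 7 and 6 of 8 genes lower and none higher, while 3 and 4 of 5 carriers and 3 of 5 glycogen genes in each rose and Gys1 of glycogen fell. Of the TCA genes 4 and 5 of 9 were lower and none was higher.

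Pfkp had 10.01, 9.335, 10.88, 8.811 and 7.942 CPM in NPC DCH and 258.0, 257.6, 239.0, 235.7 and 141.3 in Graft SCI 14 d (4.90 ± 0.15, adjusted p = 1.294e-10), and it rose by 4.47 on the log2 scale in uninjured cord. Slc2a4 had 0.1090, 0.06329, 0.02266, 0.02811 and 1.180 CPM in NPC DCH and 18.96, 29.45, 19.59, 10.53 and 7.579 in Graft SCI 14 d (6.26 ± 1.03, adjusted p = 0.0001504), with 4.93 in uninjured cord. A fold against levels this near 0 depends on the prior count of the fit. Slc16a1 had 116.5, 104.2, 112.4, 107.3 and 102.3 CPM in NPC DCH and 628.5, 666.7, 685.1, 780.3 and 338.0 in Graft SCI 14 d (2.83 ± 0.16, adjusted p = 1.588e-08). In all 3 genes the graft libraries lay above all NPC DCH libraries, replicate 5 included.

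Hk2 had 95.93, 83.93, 71.65, 90.85 and 78.29 CPM in NPC DCH and 33.31, 20.41, 27.14, 21.37 and 22 in Graft SCI 14 d (−1.43 ± 0.15, adjusted p = 3.081e-06), and its log2FC in uninjured cord was −2.49. Several kinase and glycogen genes moved the other way in both settings: Pdk4 had log2FC of 3.46 in SCI and 3.80 in uninjured cord, Ppp1r3c 2.90 and 2.62, Pygm 2.50 and 3.69, Pdk2 2.32 and 2.61, and Pdk1 1.82 and 1.64. The size of the Pygm rise depended on the reference. Its median was 7.98 CPM in NPC DCH, and ran from 7.81 in NPC P30 to 30.03 in NPC P15 D3. It was 33.60 CPM in Graft SCI 14 d and 75.21 in Graft uninjured 14 d. Slc16a3 fell in both against NPC DCH (−2.01 and −2.26), but against NPC P15 D3 it was higher in both (1.92 and 1.67). Also lower in both were Gys1, glycogen synthase (−1.39 and −1.69), Fh1, fumarase (−1.50 and −1.37), Pgam1, phosphoglycerate mutase (−1.75 and −1.28), and Ldha (−1.36 and −2.29). The naming rule, with at most 8 genes in each direction, added Eno1 (−1.50), Gapdh (−1.46) and Tkt (−1.42) for Graft SCI 14 d. For Graft uninjured 14 d it added Cs, citrate synthase (−1.55), Mdh2 (−1.36) and Pygb (1.57). This does not mark a difference between the settings, and none of these genes was called between SCI and uninjured grafts. Median CPM in NPC DCH, Graft SCI 14 d and Graft uninjured 14 d was 145.25, 374.57 and 358.34 for Pygb, and 823.46, 269.51 and 265.27 for Cs. Aldoc was called higher in Graft SCI 14 d (0.56) while Hk1 (−0.82), Ldhb (−0.81) and Aldoa (−0.63) were lower, although Ldhb was higher by 0.71 against NPC P15. In uninjured cord Aldoc (0.52), Hk1 (−0.27), Ldhb (−0.77) and Aldoa (−0.17) were not called. Against NPC DCH, the log2 Hk2/Hk1 ratio of Graft SCI 14 d was lower by a difference of −0.595 and the Aldoc/Aldoa ratio higher by 1.17 (adjusted p = 0.01852 for each, exact permutation tests), while the Ldhb/Ldha ratio overlapped and missed the threshold (difference 0.601, adjusted p = 0.05263, exact permutation test).

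**Figure D4:**
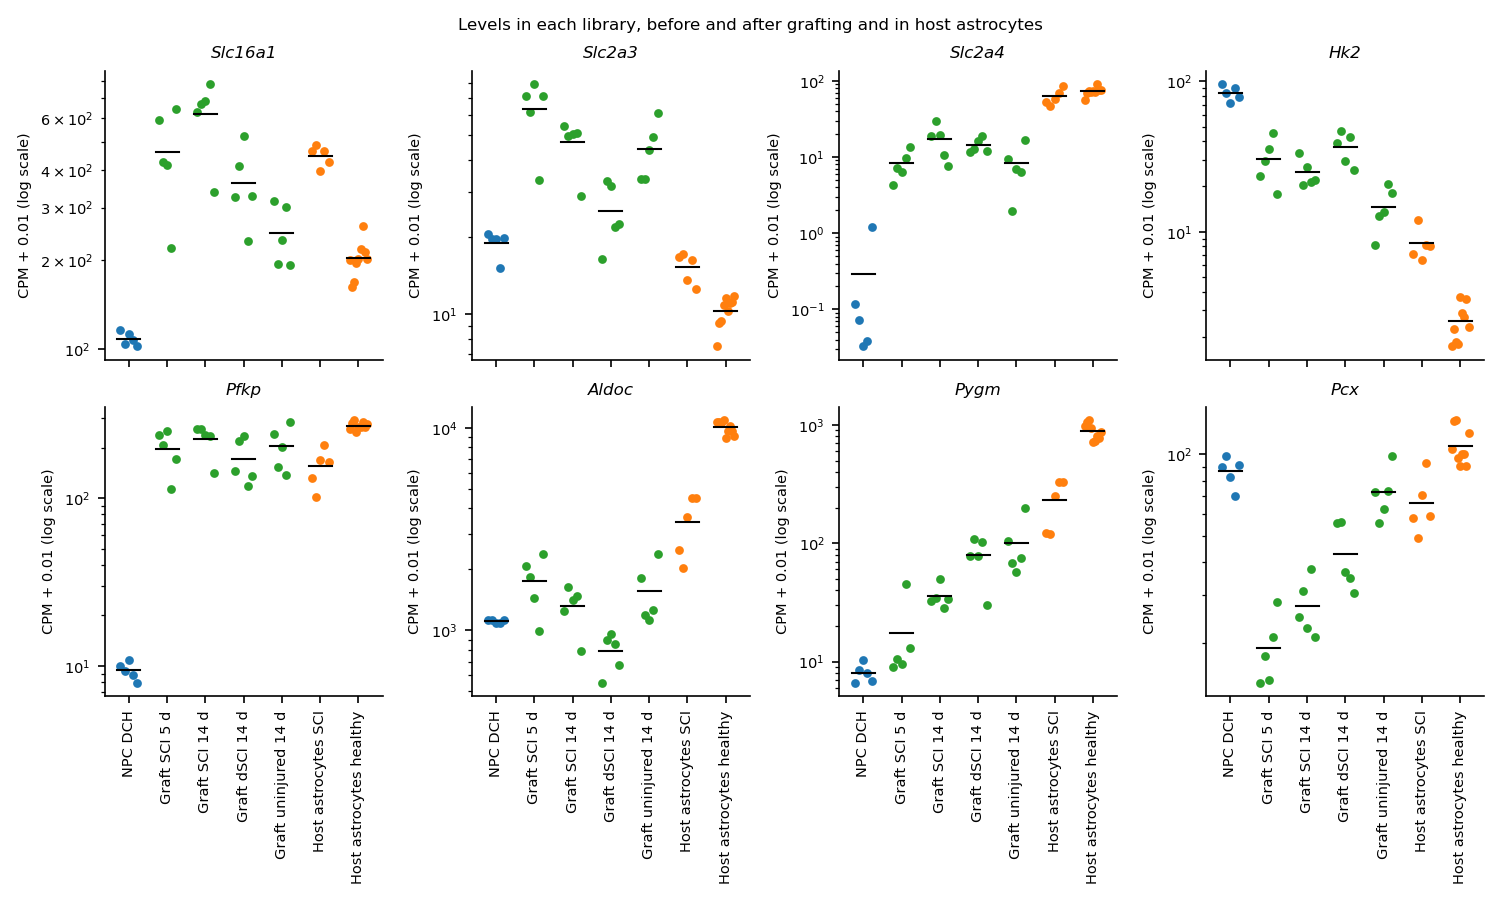
CPM of 8 genes in single libraries (points) and group means (bars) of NPC DCH (blue), the graft groups (green) and host astrocytes (orange), on a log axis of CPM + 0.01. Pfkp lies at 141.3 CPM or more in each Graft SCI 14 d library and at 10.88 or less in NPC DCH.

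Injured and uninjured cord were then compared directly, with the low recovery of simulated 2-fold changes given above, so few calls do not show that the other genes were unchanged. Graft SCI 14 d against Graft uninjured 14 d gave 3 called genes (2 higher, 1 lower), where 4.64% of all tested genes were called (2.09% higher and 2.55% lower), and 5 without replicate 5 of Graft SCI 14 d, which added Ldha (1.03) and Pfkfb3. Neuron markers (8 genes) summed to 277 to 616 CPM in Graft SCI 14 d and 1584 to 8170 in uninjured cord, and oligodendrocyte markers to 4523 to 11250 and 12240 to 28080. Their part in the result was not tested. Slc16a1 had 315.1, 194.4, 233.9, 300.2 and 192.4 CPM in uninjured cord against the Graft SCI 14 d values above (1.59 ± 0.22, adjusted p = 0.0007404). Idh2, the mitochondrial NADP-dependent isocitrate dehydrogenase, had 103.6, 128.2, 131.8, 117.3 and 76.20 CPM in uninjured cord and 240.4, 256.7, 229.3, 206.6 and 85.27 in SCI (1.12 ± 0.23, adjusted p = 0.006071). Pcx had 72.47, 55.58, 62.62, 73.31 and 98.41 CPM and then 24.94, 31.24, 22.76, 37.52 and 20.98 (−1.13 ± 0.22, adjusted p = 0.004961). Slc16a1 and Pcx did not overlap, while Idh2 overlapped through replicate 5. Hk2 (1.03), Ldha (0.90), Hk1 (−0.59) and Aldoa (−0.50) were not called. The log2 Hk2/Hk1 ratio was −2.82 ± 0.40 in Graft SCI 14 d and −4.48 ± 0.55 in uninjured cord, a difference of 1.67 (adjusted p = 0.01852, exact permutation test, where 5 against 5 allows no unadjusted p under 0.007937), and the Ldhb/Ldha ratio was lower by a difference of −0.818 (adjusted p = 0.01852, exact permutation test). The Aldoc/Aldoa ratio was 0.88 ± 0.28 and 0.43 ± 0.23 (adjusted p = 0.0463, exact permutation test), and the libraries overlapped.

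The double crush gave no called gene against Graft SCI 14 d by edgeR and 4 by DESeq2, where 1.83% of all tested genes were called by edgeR (1.29% higher and 0.538% lower). An unadjusted p below 0.05 was found for 16 genes, while 3 were called without replicate 5 of Graft SCI 14 d and 2 without replicate 5 of Graft dSCI 14 d. Recovery at 14 d against 5 d gave 2 called genes, where 5.3% of all tested genes were called (2.72% higher and 2.58% lower). Idh1, the cytosolic isocitrate dehydrogenase, had 193.6, 156.3, 147.4, 162.3 and 142.9 CPM at 5 d and 77.17, 67.32, 72.05, 67.60 and 33.67 at 14 d (−1.19 ± 0.19, adjusted p = 0.001723). Tpi1, triose phosphate isomerase, had 209.3, 286.6, 303.9, 272.6 and 289.8 CPM and then 443.7, 445.0, 490.3, 421.6 and 272.5 (0.77 ± 0.17, adjusted p = 0.009896). Idh1 did not overlap, and Tpi1 overlapped through replicate 5. The count was 5 without replicate 4 of Graft SCI 5 d, and read type goes with time here.

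Grafts in SCI were also set against host astrocytes after SCI. In this comparison 20 of 45 genes were called (3 higher, 17 lower), where 14.6% of all tested genes were called (6.79% higher and 7.84% lower). Library sizes alone gave 12 (2 higher, 10 lower). The graft and host injuries may differ in age by the 2 days named above. Pygm had 32.66, 34.66, 50.18, 28.33 and 33.60 CPM in the grafts, below every host SCI library given above (−2.74 ± 0.33, adjusted p = 9.402e-05). Slc2a3 had 16.71, 17.19, 13.59, 16.25 and 12.53 CPM in host SCI and 54.46, 49.64, 50.57, 50.84 and 28.96 in the grafts (1.56 ± 0.15, adjusted p = 2.32e-05), and Hk2 was higher (1.51 ± 0.21, adjusted p = 0.0002754). The libraries of the 2 groups were separated in all 3 genes. Pdk4 (−2.09), Slc2a4 (−1.96), Aldoc (−1.46), Pcx (−1.31), Glud1 (−1.18), Pgk1 (−1.15), Pdk2 (−1.06), Ldhb (−0.82) and Aldoa (−0.68) were lower in the grafts, and Ldha (0.48) and Hk1 (−0.35) were not called. The log2 Hk2/Hk1 ratio was higher in the grafts by 1.88 and the Ldhb/Ldha ratio lower, with a difference of −1.25 (adjusted p = 0.01852 for each, exact permutation tests). The Aldoc/Aldoa ratio differed by −0.739 with overlap (adjusted p = 0.03333, exact permutation test). The graft cells come from a Sox2-Cre ESC line and the host cells from a Gfap-Cre line, so origin and Cre driver cannot be told apart here.

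Whether injury moved host and graft by the same amount was tested as an interaction, the log2FC of SCI against healthy host astrocytes minus that of SCI against uninjured grafts. It was called for 17 of 45 genes, 1 higher and 16 lower, where 16.8% of all tested genes were called (10.7% higher and 6.11% lower). Library sizes alone gave 3 higher and 6 lower. It was −1.68 ± 0.31 for Aldoc, −1.62 for Slc2a4, −1.35 for Idh2, −1.34 for Pfkp, −1.22 for Pfkm, −1.21 for Ppp1r3c, −1.16 for Ldha and −1.15 for Ldhb, and 2.19 ± 0.37 for Pdk3. Hk1 (−0.23), Hk2 (0.54) and Aldoa (0.04) were not called. The median was −0.56 for the set and 0.13 for all genes, which became 0.554 with library sizes alone.

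**Figure D5:**
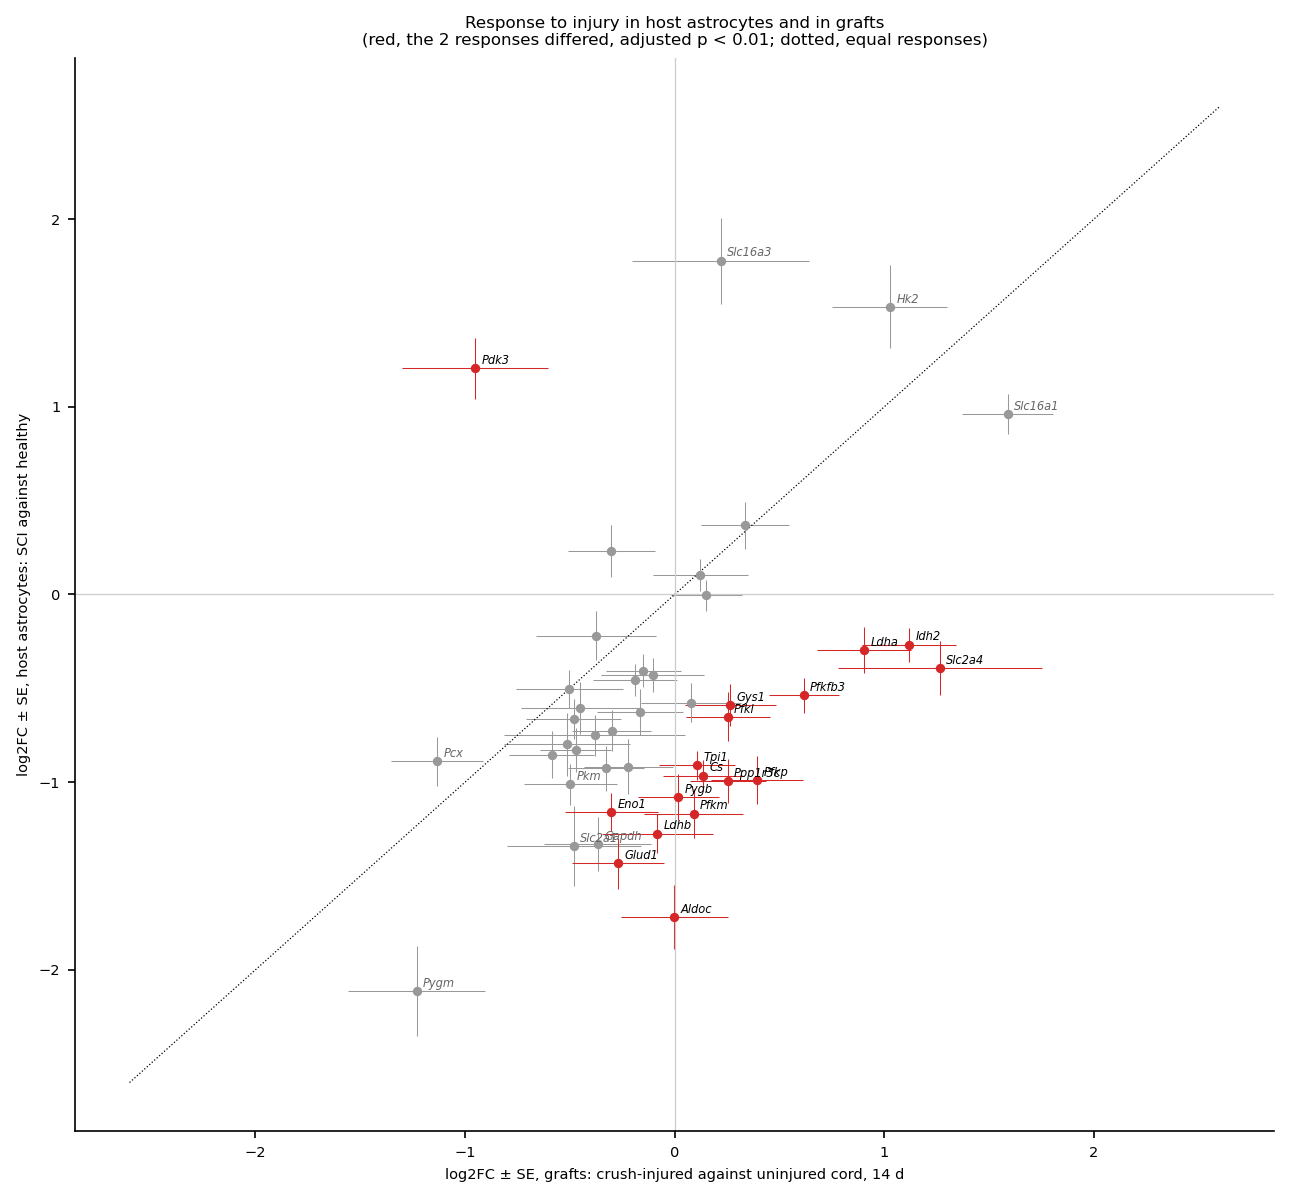
log2FC of Graft SCI 14 d against Graft uninjured 14 d (x axis) and of SCI against healthy host astrocytes (y axis) for the 45 genes, with bars of 1 SE, in red where the difference between the 2 was called and grey elsewhere. The dotted line marks equal responses, with 16 red genes under it, Aldoc among them, and Pdk3 above it.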

How the data were processed

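The authors deposited raw counts of reads per Entrez gene for 107 libraries, made in Galaxy with Trimmomatic, HISAT2 on mm10 and featureCounts. Groups and replicate numbers came from the sample labels, and no columns of other samples were used. Symbols were matched to RefSeq for 25275 of 27179 genes. From the counts, CPM on library totals and CPM per kilobase of union exon were computed. Union exons are long for genes with many annotated transcripts, such as Gapdh and Pfkp, which lowers their values per kilobase. The 2 groups of each comparison were fitted alone, in R 4.3.3, with the quasi-likelihood test of edgeR 4.0.16 after TMM scaling and filterByExpr (minimum count 10), with Benjamini-Hochberg adjustment over all tested genes and calls at an adjusted p below 0.01. The SE is the size of the log2FC over the square root of F. Isoform ratios were tested in Python 3.11.15 with scipy 1.17.1, and were called at an adjusted p below 0.05. Tests were first tried on simulated data. For SPONT against NPC P15, edgeR recovered 90 of 110 2-fold changes and 89 of 90 4-fold changes. For SCI against uninjured grafts it recovered 12 of 104 and 73 of 96. No other edgeR comparison was simulated.

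The 45 genes, 98 further genes of these pathways and the marker lists were chosen with earlier results of these data known. In each comparison the text names called members with an absolute log2FC of at least 1, at most 8 in each direction by size, and the 3 isoform pairs. Other members that are named were chosen after their values were seen. Up to 3 further genes per list are named by size, with a group mean of at least 10 CPM. NPC P15 was the reference for SPONT and NPC DCH that for grafts. Alternatives were library sizes alone or DESeq2 size factors in place of TMM, DESeq2 1.42.0, no filter, a replicate block, all 23 groups in 1 fit, other NPC references and each library left out in turn. Counts limit precision only for the lowest genes at this depth, and intervals of counting error are not given since replicates were available.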

Additional observations from a re-analysis of the deposited data

Results flagged for a closer look

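In groups of 4 to 10 libraries, 115 sets of values were checked for a library far from the others by Dixon's test, and 12 were marked, where chance gives about 1 in 20. In Graft SCI 14 d the lowest library stood apart for Pfkp (141.3 CPM), Slc2a3 (28.96 CPM), Idh1 (33.67 CPM) and the log2 Hk2/Hk1 ratio (−3.52), and the highest for Pygm (50.18 CPM). In culture, the library that stood apart had 158.3 CPM for Pfkp and 1149 CPM for Aldoc in 20% FBS, 180.3 CPM for Glud1 and a log2 Hk2/Hk1 ratio of −1.101 in NPC P15, and 1.180 CPM for Slc2a4 in NPC DCH. In host SCI it was Pdk3 at 12.91 CPM, and in Graft uninjured 14 d the log2 Ldhb/Ldha ratio at 1.571.

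The response to injury differed between host astrocytes and grafts, by the test of the difference itself, for 17 genes. Besides the 9 genes with values in the report (Aldoc −1.68, Slc2a4 −1.62, Idh2 −1.35, Pfkp −1.34, Pfkm −1.22, Ppp1r3c −1.21, Ldha −1.16, Ldhb −1.15 and Pdk3 2.19 on the log2 scale), these were Glud1 (−1.12), Pfkfb3 (−1.12), Cs (−1.06), Pygb (−1.06), Tpi1 (−0.98), Pfkl (−0.87), Eno1 (−0.82) and Gys1 (−0.82).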

How the results depend on the processing

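Counts of called genes that left 1.5 times the reported count did so mostly in the small comparisons. With all 23 groups in 1 fit the count was 1 for IGF-1 and 6 for 1% FBS against SPONT, 21 for 20% against 1% FBS, 6 for CNTF + 5% FBS, 18 for NPC media against NPC P15, 2 for NPC DCH against media, 17 for SCI against uninjured grafts, 13 for dSCI against SCI, 17 for 14 d against 5 d and 32 for graft against host SCI. DESeq2 gave 14 for IGF-1, 7 for SCI against uninjured grafts, 4 for dSCI and 6 for 14 d against 5 d. Blocking on the replicate number gave counts of 0 for IGF-1, 6 for 1% FBS, 1 for 14 d against 5 d, 9 for graft against host SCI and 10 for the interaction. Library sizes alone gave 1 for 14 d against 5 d, 12 for graft against host SCI and 9 for the interaction, and no filter gave 1 for 14 d against 5 d. The splits of higher and lower with library sizes alone were 1 and 2 for SCI against uninjured grafts and 0 and 1 for 14 d against 5 d. The cause was not tested.

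Leaving out each library in turn gave counts of 0 to 17 for IGF-1, 6 to 17 for 1% FBS, 14 to 23 for CNTF + 5% FBS (14 without replicate 4 of CNTF + 5% FBS), 1 to 5 for SCI against uninjured grafts, 0 to 3 for dSCI (3 without Graft SCI 14 d replicate 5, 2 without Graft dSCI 14 d replicate 5) and 1 to 5 for 14 d against 5 d. Among the named genes, called values turned their sign only with another NPC reference: for SPONT, Ldhb was −0.48 against NPC P30 and Pfkfb3 −1.09 against D2. For NPC against ESC, Mdh2, Fh1 and Ogdh turned from lower to higher with other NPC groups, as given above. For NPC media, Pygm was 0.0043 and 0.27 against P5 and P30, and genes not called against NPC P15 were Ldha at 0.48, 0.71 and 0.47 against P5, P30 and D2 and Hk2 at −0.29 against D2. Against D3, Slc16a3 was 1.67 in uninjured and 1.92 in SCI grafts, and against NPC P15, Ldhb was 0.71 in SCI grafts. Under another scaling no called named gene turned its sign, but 4 uncalled values did: with DESeq2 size factors Aldoc was 0.0042 for IGF-1 and 0.024 for SCI against uninjured grafts and Aldoa −0.030 for the interaction, and with library sizes alone Hk1 was 0.16 for the interaction. The ratio tests kept direction and call under all 42 pseudocount alternatives. In all 204 ratio values with a library left out, the difference moved by less than 1 SD between replicates, and no test was run on them. Same-numbered libraries did not deviate together in every pair of any comparison (mean r from −0.060 to 0.065), though single pairs reached 0.27 in 1% FBS against SPONT. The main fits therefore used no pairing, but such correlations cannot exclude shared batches. Depth limits the genes under about 1 CPM in a group, such as Slc16a3 in SPONT and Slc2a4 in NPC DCH.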

Other observations

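Genes of the same pathways outside the 45 (84 genes, and 14 hypoxia-responsive genes as a further list) were counted in the same way, by edgeR with adjusted p below 0.01, and their shares are to be read against those of all tested genes. From ESC to NPC P15 31 of 73 tested rose and 21 fell, where 67.2% of all tested genes were called. Eno3, the muscle enolase, went from 40.4 to 1.20 CPM in mean (log2FC −5.14 ± 0.42), Gpd1, which links glycolysis to glycerol phosphate, from 4.05 to 214.4 CPM (5.62 ± 0.22), and glycogenin (Gyg), the primer of glycogen, from 6.27 to 63.7 CPM (3.25 ± 0.28). From NPC P15 to SPONT 27 of 71 rose and 16 fell, where 57.2% of all tested genes were called. Phkg1, a phosphorylase kinase subunit, went from 1.06 to 26.8 CPM (4.77 ± 0.28) and Pck2, mitochondrial PEP carboxykinase, from 258.8 to 35.5 CPM (−2.73 ± 0.10). Of the hypoxia-responsive genes, 9 of 14 were higher and 2 lower in 20% than in 1% FBS, where 30.4% of all tested genes were higher and 29.6% lower, with Ndrg1 going from 12.2 to 320.4 CPM (4.68 ± 0.16), and Ndrg1 was also higher with CNTF than in SPONT (6.52 to 25.6 CPM, 1.99 ± 0.12).

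In host astrocytes after SCI 14 of 77 further pathway genes rose and 35 fell, among them 16 of 21 further TCA and shuttle genes lower, where 22.2% of all tested genes were higher and 18.8% lower. Ppp1r3g, a glycogen-targeting subunit, went from 43.5 to 3.48 CPM (−3.82 ± 0.23) and Gpd1 from 773.9 to 326.7 CPM (−1.43 ± 0.09), while transaldolase (Taldo1) went from 142.2 to 379.3 CPM (1.25 ± 0.11). In Graft SCI 14 d against NPC DCH 15 of 72 rose and 21 fell, where 51.6% of all tested genes were called. Eno2, the neuronal enolase, went from 3.62 to 65.8 CPM (4.55 ± 0.28), Phkg1 from 1.49 to 63.8 CPM (5.75 ± 0.37) and Ndrg1 from 22.2 to 624.1 CPM (5.12 ± 0.16). Ndrg1 was picked by size from the 14 hypoxia-responsive genes and does not stand for that list. Neuron markers summed to 277 to 616 CPM in Graft SCI 14 d, and their part in the Eno2 value was not tested. Oligodendrocyte markers summed to 101.6 to 116.4 CPM in NPC DCH and 4523 to 11250 in Graft SCI 14 d, and their part in the Ndrg1 value was not tested. Sdhb, a succinate dehydrogenase subunit, was lower in the grafts than in host SCI (53.8 CPM against 167.4 in the host, −1.71 ± 0.15).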
